A study of Mus musculus with 267 samples.

Results

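EGR2 binding sites that appeared in bone marrow-derived macrophages (BMDMs) of SPRET mice, and in none of 4 other strains, were examined after 24 hours of interleukin-4 (IL-4). A SPRET-only site was a peak of the SPRET EGR2 24 h list that shared not a single base with any EGR2 24 h peak of C57, BALB, NOD or PWK. The rule kept 13296 of 39458 SPRET peaks (33.7%), out of 137492 peaks in the 5 lists together. The other 26162 SPRET peaks overlapped a peak of at least 1 other strain and are called shared peaks here.

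The macrophages came from female mice, 8 to 12 weeks old, of 5 inbred strains and were grown from bone marrow with M-CSF. C57 stands for C57BL/6J, BALB for BALB/cJ, NOD for NOD/ShiLtJ, PWK for the wild-derived PWK/PhJ and SPRET for SPRET/EiJ, which is wild-derived from another species, Mus spretus. No transgene or deletion is given for the groups used here. The series also holds Egr2flfl and LyzM-Cre Egr2flfl groups, which were not used. Cells were left untreated (basal) or given IL-4 at 20 ng/mL for 24 hours, and C57 cells also for 1 or 6 hours in the EGR2 experiment. Chromatin immunoprecipitation sequencing (ChIP-seq) gave 1 reproducible peak list per strain and condition for EGR2, PU.1, C/EBPβ, STAT6 and PPARγ. H3K27ac, H3K4me2, H3K4me3 and RNA polymerase II (Pol II) were counted in open regions, 1000 bp windows on reproducible ATAC-seq peaks, in a separate table for each strain.

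IL-4 is a cytokine that signals through STAT6 and turns macrophages toward tissue repair and lipid handling. EGR2 is a zinc finger transcription factor of the early growth response family that IL-4 induces through STAT6 and that keeps the later part of the IL-4 program going. It binds a GC-rich element, and in macrophages it binds enhancers beside PU.1 and C/EBPβ, the factors that set up macrophage chromatin, and PPARγ, a lipid-sensing nuclear receptor. H3K27ac marks active enhancers and promoters, H3K4me3 marks promoters, and H3K4me2 marks both.

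5 of the SPRET-only sites are shown as the 200 bp of the mm10 plus strand around the peak centre. They are sites near Fbp1, Mecom and Nap1l3, among the 8 with the largest H3K27ac rise in SPRET, and the site in Cic, the highest-scored SPRET-only peak on which the EGR core was found. Capitals mark matches, on either strand, to the EGR core GCGTGGG, PU.1 GAGGAAGT, C/EBP TTGCNNAA, AP-1 TGANTCA, STAT6 TTCNNNNGAA or DR1, the direct repeat bound by PPARγ. The letters are those of mm10, the C57 genome. SPRET alleles were not analysed here, so a match says only what the C57 letters hold.
Fbp1 distal: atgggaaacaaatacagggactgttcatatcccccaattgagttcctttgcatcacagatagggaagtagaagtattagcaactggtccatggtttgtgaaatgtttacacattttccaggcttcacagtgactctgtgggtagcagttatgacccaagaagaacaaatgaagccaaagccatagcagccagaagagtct
Fbp1 proximal: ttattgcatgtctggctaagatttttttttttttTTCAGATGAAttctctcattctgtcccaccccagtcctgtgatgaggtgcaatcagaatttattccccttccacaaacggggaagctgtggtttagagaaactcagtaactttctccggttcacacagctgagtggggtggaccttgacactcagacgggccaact
Mecom: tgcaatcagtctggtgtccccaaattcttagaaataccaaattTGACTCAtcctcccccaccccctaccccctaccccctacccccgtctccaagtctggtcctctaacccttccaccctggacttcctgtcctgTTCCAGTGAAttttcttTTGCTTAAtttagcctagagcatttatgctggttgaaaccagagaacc
Nap1l3: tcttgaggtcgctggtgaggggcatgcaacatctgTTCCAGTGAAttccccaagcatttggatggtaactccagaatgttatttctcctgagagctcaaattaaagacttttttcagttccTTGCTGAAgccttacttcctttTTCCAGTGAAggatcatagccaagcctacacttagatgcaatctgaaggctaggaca
Cic: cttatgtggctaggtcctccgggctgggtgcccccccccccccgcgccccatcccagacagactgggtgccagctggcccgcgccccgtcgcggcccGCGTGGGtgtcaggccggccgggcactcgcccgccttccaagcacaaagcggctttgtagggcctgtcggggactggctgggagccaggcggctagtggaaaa
The distal Fbp1 site lies at chr13:62901253-62901452 and the proximal one at chr13:62893463-62893662, 13.07 and 5.28 kb upstream of the gene start. Fbp1 encodes fructose-1,6-bisphosphatase, an enzyme of gluconeogenesis. The Mecom site (chr3:30344580-30344779) is in an intron of a zinc finger transcription factor gene and holds AP-1, STAT6 and C/EBP matches. The Nap1l3 site (chrX:121506145-121506344) is intergenic, with a pair of STAT6 matches and a C/EBP match, and its nearest gene start is 891.16 kb away. The Cic site (chr7:25278988-25279187) is intronic in the gene of the repressor Capicua, and its EGR core is at the peak centre. None of the 6 motifs was matched in the distal Fbp1 window.

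The SPRET-only sites were the weak end of the SPRET list. Their score in the deposited list had a median of 14 (interquartile range 11 to 20, range 9 to 244), and the median was 17, 22, 33 and 64 for peaks shared with 1, 2, 3 and 4 other strains. The median tag count given in the list, whose scale is not stated, was 13.6, against 30.8 at shared peaks. By rank in the list, 13 of the top 1000 peaks were SPRET-only (1.3%), 20.95% of those ranked 10001 to 20000, and 65.83% of those ranked below 30000. These values come from the list that chose the sites and are given as description.

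**Figure D1:**
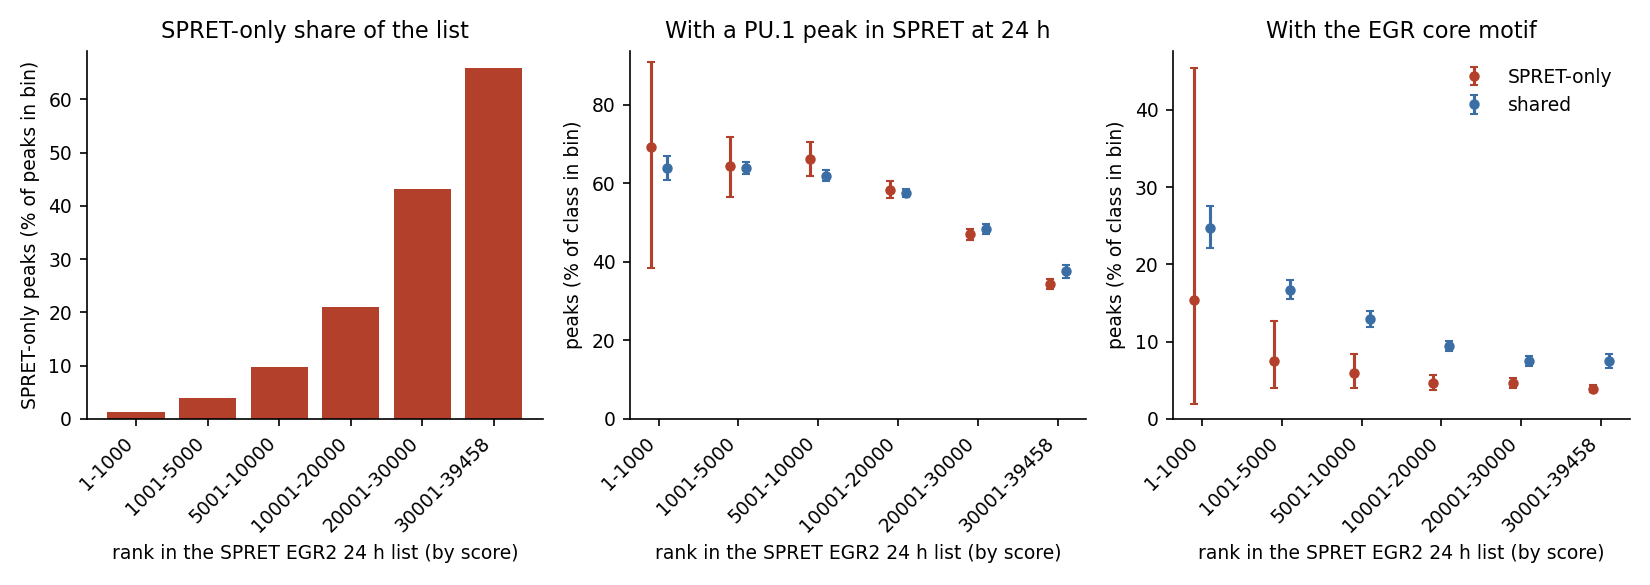
SPRET EGR2 24 h peaks by rank in their list (x axis). The left bars give the percent of each bin that is SPRET-only, which climbed from 1.3% to 65.83%. The middle points give the percent of SPRET-only (red) and shared (blue) peaks with a SPRET PU.1 peak. The right points give the percent with the EGR core motif in mm10. Both carry exact 95% binomial intervals. PU.1 points lie closer together within bins than over all peaks, and EGR core points are lower for SPRET-only peaks in every bin.

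The count changed with the length of the lists. The same rule left 5351 of 29407 peaks in C57 (18.2%), 7608 of 37104 in BALB (20.5%), 246 of 16604 in NOD (1.48%) and 921 of 14919 in PWK (6.17%). The 5 lists were compared with each other, so these shares are not independent. With every list shortened to its best 14919 peaks, 2876 SPRET peaks (19.28%) had no partner. They include peaks whose partner in a full list was no longer counted. Shortening also dropped the weak end of the SPRET list, where most SPRET-only peaks lay, so length and peak strength were not separated. Best meant the highest score given in a list, and the C57 list gave another kind of score (idrScore) than the others. The C57, BALB, NOD and PWK lists overlapped 47.67%, 59.12%, 34.17% and 30.03% of the SPRET list, and 63.95%, 62.87%, 81.19% and 79.42% of those lists overlapped it.

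The distance from a SPRET-only site to the nearest EGR2 peak of another strain varied widely. The median gap was 7581 bp, and 5679 sites (42.71%) had no such peak within 10 kb. At the other end, 413 sites (3.11%) lay within 100 bp of such a peak. The rule removed overlapping peaks, so the gaps follow in part from it. Gaps of a background set were not measured, and these values are given as description. Just inside the rule was a site at chr4:129049127-129049326, 9.04 kb from Rnf19b, an E3 ubiquitin ligase gene, which abutted a peak of another strain with a gap of 0 bp and had a score of 229. Just outside was a peak at chr6:124493224-124493423 near C1rl that overlapped by 1 bp and had a score of 15. In all, 10 peaks had a gap of 0 bp and 3 an overlap of 1 bp.

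EGR2 was rarely listed at these sites in any other EGR2 experiment of the series. The SPRET basal list held 795 of the 13296 sites (5.98%, exact 95% binomial interval 5.58 to 6.4), against 38.29% of shared peaks. The basal lists of the other strains held 0.11% of them in C57, 0.53% in PWK, 4.25% in NOD and 5.26% in BALB, against 19.17% to 71.3% of shared peaks. The C57 lists after 1 and 6 hours of IL-4 held 0.5% and 0.26%. The rule removed peaks shared at 24 h with these strains, so low shares in their other lists follow in part from it. These shares are given as description. Intervals here and below cover counting error only, and a peak missing from a list may be below its threshold. In the table of the C57 time course, whose sites are merged over time points, 78 sites touched a SPRET-only peak and no shared one. C57 had listed each of these sites at some time point, 27 in basal cells only and 7 in basal cells and at 1, 6 and 24 h. Their 24 h EGR2 tags had medians of 47.58 and 34.56 in the 2 libraries, against 58.8 and 42.24 at 19544 sites on shared peaks.

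The sites lay away from gene starts. Within 1 kb of a gene start were 1251 of them (9.41%, interval 8.92 to 9.92), against 33.65% of shared peaks. Introns held 46.11% and intergenic sequence 39.53%, against 34.36% and 26.37%. The median distance to a gene start was 24.07 kb, against 8.22 kb. By chromosome, the SPRET-only share of the list ran from 28.5% on X to 37.47% on chromosome 14.

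In mm10 letters the EGR core was less frequent at SPRET-only sites than at shared peaks, and it sat at the peak centre in both. It was found in 584 of 13296 windows of 200 bp (4.39%, interval 4.05 to 4.75), in 11.02% of shared windows and in 16.99% of peaks shared with all 4 other strains. The core was in 0.66% of SPRET open regions without an EGR2 peak and in 3.56% of 32851 RefSeq promoters (GRCm38.p6) of the same length. Within 50 bp of the centre there were 17 matches per 1000 SPRET-only peaks on either side, and 2.03 to 4.59 in each 50 bp step beyond 150 bp. At shared peaks the central steps held 39.94 and 50.07. The search used C57 letters, and the rule chose sites with no C57 EGR2 peak. A core present only in the SPRET allele was not seen, so the lower share can follow in part from this choice.

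**Figure D2:**
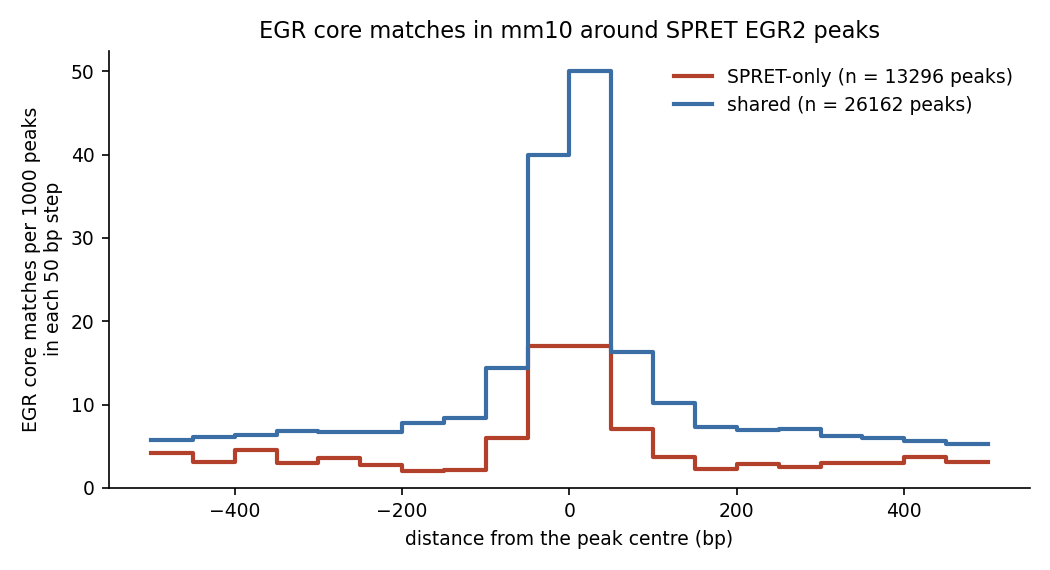
EGR core matches in mm10 per 1000 peaks in 50 bp steps (y axis) by distance from the peak centre in bp (x axis), for SPRET-only (red) and shared (blue) SPRET peaks. Both lines peak at the centre, at 17 for SPRET-only peaks and at 50.07 for shared peaks.

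In the same letters the share was also lower at equal rank and away from gene starts, splits that do not remove this limit. In peaks ranked 1001 to 5000, 7.5% of SPRET-only and 16.72% of shared windows held the core, and below rank 30000 the shares were 3.92% and 7.49%. Beyond 1 kb from gene starts they were 3.94% and 8.03%. The full element GCGTGGGCG, which contains the core, was in 0.27% and 1.69%, and with 1 mismatch allowed in 6.98% and 23.06%. Strain-only peaks of C57, BALB, NOD and PWK, found by the same rule, held the core in 2.67%, 5.95%, 8.94% and 5.75%, against 10.51% to 13.74% of the shared peaks of those lists.

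The motifs of PU.1, C/EBP and STAT6 were near as frequent at SPRET-only as at shared peaks, and AP-1 was less frequent. PU.1 was matched in 7.97% against 7.5%, C/EBP in 10.24% against 9.95%, STAT6 in 5.29% against 5.0%, AP-1 in 8.9% against 10.37% and DR1 in 0.39% against 0.27%. SPRET open regions without EGR2 held these motifs in 10.13%, 12.68%, 5.39%, 16.8% and 0.4%, at or above the SPRET-only shares, and RefSeq promoters in 2.06%, 7.47%, 4.53%, 5.48% and 0.3%. The motifs followed the factors. The C/EBP motif was in 27.25% of SPRET-only sites with a C/EBPβ peak and in 6.53% of those without one, the PU.1 motif in 14.37% against 2.98%, and STAT6 in 10.07% against 3.51%. The EGR core went the other way, from 5.87% of sites with none of the 4 factors to 1.59% of the 504 sites with all 4.

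The base composition and repeat content of the sites also differed. The median GC content of the window was 50.0% against 55.5% at shared peaks and 49.5% in SPRET open regions without EGR2. Windows with at least 50% of their bases repeat-masked in mm10 made up 17.87% (interval 17.22 to 18.53), against 6.95% and 3.47%. The difference was present at each rank, for example 14.18% against 6.51% at ranks 10001 to 20000. Of the SPRET-only sites on an open region 6.44% were masked to that extent, and of those with none 24.8%.

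The partner factors' lists differed in length, which bears on the order of their shares. At 24 h a SPRET PU.1 peak overlapped 5824 of 13296 (43.8%, interval 42.96 to 44.65), STAT6 27.11%, C/EBPβ 17.89% and PPARγ 10.6%. At shared peaks the shares were 55.03%, 40.98%, 25.65% and 19.96%. None of the 4 factors was listed at 6303 sites (47.41%), 1 at 3180, 2 at 1906, 3 at 1403 and all 4 at 504 (3.79%). At equal rank the PU.1 shares were closer, with 58.38% of SPRET-only and 57.52% of shared peaks at ranks 10001 to 20000, and 34.32% and 37.59% below rank 30000. In the latter bin, which held 6226 of the sites, STAT6 was at 18.02% and 22.9%, C/EBPβ at 13.2% and 16.46% and PPARγ at 7.02% and 10.4%.

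Open chromatin separated the sites further. Where a site had a SPRET open region centred within 500 bp, PU.1 was listed at 65.6%, STAT6 at 52.22%, C/EBPβ at 32.11% and PPARγ at 20.31%. The values at shared peaks with a region were 65.17%, 52.29%, 32.27% and 26.39%. At sites with no region they fell to 30.6%, 11.9%, 9.26% and 4.72%. Only PPARγ was clearly less frequent at open SPRET-only sites than at open shared peaks.

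The partner factors were listed at these sites more often in SPRET than in the other strains. With each factor's lists cut to the same length, PU.1 overlapped 41.38% in SPRET and 23.26% to 25.52% in the other 4 strains. C/EBPβ overlapped 17.89% against 7.86% to 8.97%, STAT6 12.81% against 4.76% to 5.81%, and PPARγ 10.6% against 3.52% to 4.98%. At shared peaks the PU.1 shares in the 5 strains ran only from 51.66% to 52.56%. With the lists as deposited, the PPARγ share in SPRET (10.6%) was no higher than in NOD (10.76%), whose list held 40426 peaks against 18487. Each strain had 1 list for each factor, so these shares carry no replicate error. The rule chose sites with EGR2 in SPRET and not in the other strains, so higher factor shares in SPRET can follow in part from it. They are given as description.

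**Figure D3:**
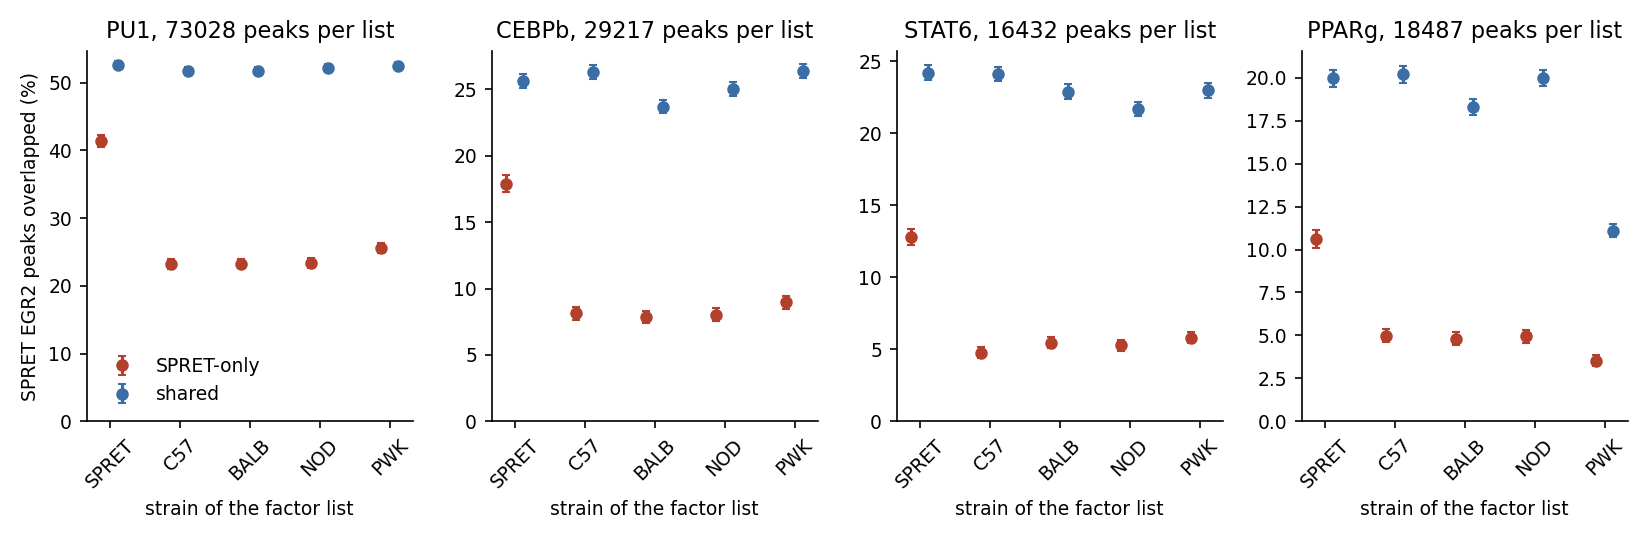
Percent of SPRET EGR2 24 h peaks (y axis) overlapped by a 24 h peak of PU.1, C/EBPβ, STAT6 or PPARγ in each strain (x axis), for SPRET-only (red) and shared (blue) EGR2 peaks, with factor lists cut to equal length and exact 95% binomial intervals. SPRET-only peaks stand highest in SPRET for each factor, such as 41.38% against 23.26% to 25.52% for PU.1. Shared peaks are near level except for PPARγ in PWK. The rule asked for EGR2 in SPRET alone, so the order of the red points can follow in part from it.

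Among SPRET-only sites with a factor in SPRET, that factor was often missing from the other strains too. This held for 1818 of 5824 PU.1 peaks (31.22%, against 4.37% at shared peaks), 38.1% of C/EBPβ peaks, 41.28% of PPARγ peaks and 1799 of 3605 STAT6 peaks (49.9%, against 10.64%). Of STAT6-bound SPRET-only sites 48.43% had no STAT6 peak in the SPRET basal list, and the shares were 40.35% for PPARγ, 21.66% for C/EBPβ and 12.43% for PU.1. At shared peaks they were 35.71% for STAT6 and for PPARγ, 17.26% and 8.66%. Of 6993 sites with any factor, 2013 had none of the 4 factors in any other strain. At 5148 sites no strain had any of them at 24 h. The rule asked for no EGR2 peak in the other strains, so the missing factors can follow in part from it.

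The 18 SPRET libraries held 9285735 to 19476882 tags, so that 16 normalised tags stood for 14.86 to 31.16 reads, and all 50 libraries counted in open regions held between 5825127 and 20991422. Of 9 macrophage marker genes 8 had a SPRET open region at the start, with H3K27ac of 16.45 tags at Fcgr1 to 1162.17 at Spi1 in basal cells and 10.87 to 932.58 at 24 h. All 8 were lower at 24 h, and Csf1r had no region. Of 15 markers of other cells 11 had no region, and the other 4 were Klrb1c (53.16 tags in basal and 71.05 at 24 h), Zbtb46 (13.09 and 45.98), Col1a1 (2.7 and 7.0) and Elane (2.92 and 1.42). Their part in the results was not tested. In bulk samples, fewer cells of a type and less signal per cell cannot be told apart.

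Of the SPRET-only sites, 5017 (37.73%, interval 36.91 to 38.56) had a SPRET open region, against 66.52% of shared peaks. In the tables of the other strains 23.47% to 28.54% had one, against 70.38% to 75.32%. Of the 5017, 1993 (39.72%) were open in all 5 tables and 1360 (27.11%) in SPRET alone, against 81.03% and 2.05% at shared peaks. These differences between strains, too, can follow in part from the rule. The 5017 sites lay on 4987 regions, of which 160 also held a shared peak. ATAC-seq called 26.59% of these regions only after IL-4, against 18.22% at shared peaks and 24.29% of all 54755 regions.

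H3K27ac at SPRET-only sites was near the level of an ordinary SPRET open region. The median over the 4987 regions was 29.07 and 30.95 normalised tags in the basal libraries and 34.38 and 33.38 in the 24 h libraries, against 80.77 to 98.12 at shared peaks and 30.78 to 32.92 over all regions. The 24 h libraries were above the basal ones at SPRET-only sites, and at shared peaks the groups overlapped. H3K4me3, the promoter mark, had library medians of 4.25 to 4.85 against 65.39 to 72.93 at shared peaks. H3K4me2 medians were 38.81 and 45.35 in basal and 30.46 and 31.04 at 24 h. Pol II medians of the 3 libraries in each group overlapped, at 16.43 to 18.38 in basal and 14.77 to 18.59 at 24 h.

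IL-4 raised H3K27ac at a small set of SPRET-only sites. The limma test across the whole SPRET table (Benjamini-Hochberg adjusted p under 0.05) called 106 of 4987 regions higher at 24 h (2.126%) and 11 lower (0.221%). Of all regions 0.994% were called higher and 0.192% lower, and at shared peaks 1.434% were called higher. The median log2 difference was -0.005 over SPRET-only regions and -0.086 over all regions. Of the 106, 93 were also called by both edgeR and DESeq2. The calls rest on both libraries of each group, as limma called fewer SPRET-only regions or none when any library was left out.

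The rises were more frequent in chromatin that opened after IL-4 and at sites with a partner factor. In the 1326 regions that ATAC-seq called only after IL-4, median H3K27ac was 14.75 tags in basal and 24.22 at 24 h, and 71 regions were called higher (5.35%), against 2.47% of all such regions in the table. In the 3006 regions open in both conditions the medians were 44.88 and 43.33, and 33 (1.1%) were called higher, against 0.6% of all such regions. Over the whole table, too, calls were more frequent in regions open only after IL-4. With STAT6 bound, 86 of 2619 SPRET-only regions were called higher (3.28%), and without it 21 of 2382 (0.88%). The other factors went the same way, with 3.24% against 1.84% for PPARγ, 2.43% against 1.57% for PU.1 and 2.42% against 1.98% for C/EBPβ. The splits by factor were not made for other regions. A region with several EGR2 peaks can count in both groups, and the differences between the shares were not tested.

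By a fold rule for single marks, a change of at least 2.5-fold in the mean of tags + 1 with at least 16 tags in either group, H3K27ac rose at 254 SPRET-only regions (5.093%) and fell at 44 (0.882%), where 2.64% of all regions rose and 0.939% fell. At 248 and 44 of these the basal and 24 h libraries did not overlap, as in 2.55% and 0.919% of all regions. For Pol II, with a minimum of 8 tags, 106 rose and 40 fell, with 1.54% and 0.805% of all regions. Both marks rose at 76 and fell at 10 (0.873% and 0.221% of all regions). H3K4me2 rose at 10 and fell at 4 (background 0.141% and 0.195%), or at 43 and 0 with median-ratio scaling, and H3K4me3 rose at 18 and fell at 6 (0.283% and 0.0895%).

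Pol II calls by limma stood at the background. Without the replicate block, 40 of 4987 regions were higher (0.802%) and 11 lower (0.221%), where 0.782% and 0.27% of all regions were called. Same-numbered Pol II libraries deviated together, and with the replicate number as a block 199 were higher (3.99%) and 224 lower (4.492%), where 3.56% and 4.83% of all regions were. The median log2 difference of Pol II was -0.07 over SPRET-only regions and -0.102 over all regions, which median-ratio scaling moved to -0.011. Without 24 h replicate 1, 3 SPRET-only regions were called higher and 0 lower (0.069% and 0.002% of all regions). Without basal replicate 1, 16 and 1 were called (0.258% and 0.015% of all regions).

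For H3K4me2 limma without the block called no region of the table in either direction (0.0%), and edgeR and DESeq2 called none of the SPRET-only regions. With the block limma called 71 SPRET-only regions higher (1.424%) and 1349 lower (27.05%), where 0.979% and 29.561% of all regions were. At an unadjusted p under 0.05 limma without the block had 1529 SPRET-only regions (30.66%, against 32.42% of all regions), 72 of them higher. The median log2 difference was -0.441, near the -0.481 of all regions, and with median-ratio scaling the latter was -0.016. Without basal replicate 1 limma called 486 SPRET-only regions lower (9.745%, against 11.451% of all regions) and 18 higher (0.361% against 0.499%). For H3K4me3 limma called none (0.0%), which says nothing of absence at the low values of this mark. Of the SPRET-only regions 331 had an unadjusted p under 0.05 (6.64%, against 6.17% of all regions), 249 of them higher. edgeR called 17 higher and 4 lower (background 0.296% and 0.0858%), and DESeq2 5 and 1 (0.0804% and 0.0164%).

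The other strains had no excess of rises at the matched regions of their own tables. These regions differ between strains, as 1360 sites were open in SPRET alone, and were not limited to sites open in all 5 tables. In C57 H3K27ac rose at 85 of 3676 (2.312%) and fell at 337 (9.168%), where 3.46% and 7.55% of all C57 regions did. In BALB it rose at 89 of 3105 (2.866%) and fell at 197 (6.345%), with a background of 2.84% and 5.13%. In NOD it rose at 90 of 3778 (2.382%) and fell at 250 (6.617%), with 3.24% and 5.14%. In PWK it rose at 117 of 3730 (3.137%) and fell at 154 (4.129%), with 3.1% and 3.01%. With median-ratio scaling the split was 130 to 160 in C57, 121 to 74 in BALB, 138 to 151 in NOD and 148 to 84 in PWK, and 295 to 29 in SPRET, so whether rises or falls were more numerous in BALB and PWK depended on the scaling. In BALB the count of falls was 585 without 24 h replicate 1. The tables were made separately for each strain and no test was made between them.

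**Figure D4:**
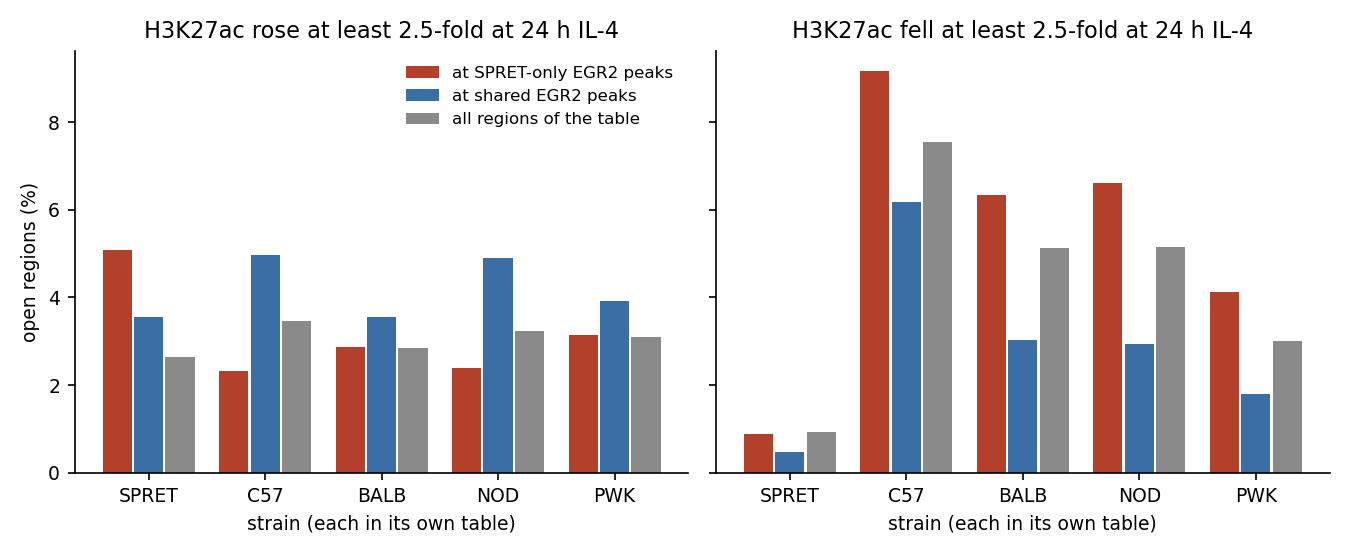
Percent of open regions (y axis) whose mean H3K27ac rose (left) or fell (right) at least 2.5-fold at 24 h IL-4 in each strain (x axis), at SPRET-only EGR2 sites (red), at shared SPRET EGR2 peaks (blue) and over the whole table (grey). In SPRET the red bar for rises stands at 5.093% against 2.64% for all regions. In C57 it stands below the grey bar.

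Levels were compared side by side. At the 1993 sites open in all 5 tables, median H3K27ac at 24 h was 63.26 tags in SPRET, 49.28 in PWK, 46.22 in NOD, 41.8 in BALB and 36.91 in C57, and in basal cells 70.75 in SPRET and 56.16 to 62.81 in the others. At 14102 shared peaks open in all 5 tables the strains had the same order at 24 h, with 101.51, 91.15, 83.46, 82.56 and 72.66. SPRET had the highest 24 h level of the 5 at 957 of 1993 sites (48.02%), but also at 42.46% of those shared peaks. With each strain divided by its median at shared peaks, the shares were 32.41% and 24.99%. The BALB 24 h libraries differed most, with medians of 41.42 and 25.72 over all matched BALB regions.

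The largest rises were at a few named sites, chosen by size among regions that passed the fold rule and whose libraries did not overlap. The proximal Fbp1 site had 5.98 and 1.32 H3K27ac tags in the basal libraries and 220.4 and 110.92 at 24 h. The distal one had 2.56 and 1.98 in basal and 163.1 and 72.15 at 24 h. These are ratios of means of 45.4 and 51.8, with log2 differences of 5.29 ± 0.54 and 5.07 ± 0.5 (SE, limma adjusted p 0.000185 for both). Pol II moved with them, from 0.0, 1.52 and 0.0 to 39.72, 19.08 and 23.09 tags at the proximal site (limma adjusted p 0.00456). PU.1, C/EBPβ and STAT6 were bound at both in SPRET at 24 h and only PU.1 in basal cells. Neither site had an open region or a peak of any of the 4 factors in C57, BALB, NOD or PWK.

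An intronic site in Usp20, a deubiquitinase gene, followed the same pattern. Its H3K27ac was 0.85 and 1.98 tags in basal and 91.69 and 66.77 at 24 h (log2 difference 5.08 ± 0.51, limma adjusted p 0.000185). PU.1, C/EBPβ and STAT6 were listed at 24 h and none in basal cells, and no other strain had a region or a factor there. The Mecom site had the highest EGR2 score of the rises, 98. Its H3K27ac was 6.84 and 5.93 in basal and 217.76 and 81.85 at 24 h (limma adjusted p 0.000401), with PU.1 and STAT6 only after IL-4. PWK had a region there as well, with 12.02 and 11.75 tags in basal and 78.79 and 46.76 at 24 h, and a STAT6 peak, whereas NOD had 7.48 and 1.59 and then 9.4 and 5.63.

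At other rises the response was not limited to SPRET, although the EGR2 peak was. A site 9.9 kb upstream of Gfra2, a GDNF family receptor gene, had 3.42 and 3.95 H3K27ac tags in basal and 218.64 and 53.85 at 24 h in SPRET. C57 had 6.11 and 6.42 in basal and 44.99 and 46.6 at 24 h, and BALB 5.14 and 4.17 and then 94.88 and 55.74. A site in the neighbourhood of Hrh4, a histamine receptor gene 231.57 kb away, had 5.98 and 1.32 in basal and 173.68 and 87.23 at 24 h in SPRET, and 4.99 and 0.79 and then 273.4 and 93.43 in NOD. STAT6 and PU.1 were listed at both sites in all 5 strains. The Nap1l3 site had 1.71 and 1.98 in basal and 106.67 and 35.54 at 24 h in SPRET, and both 24 h libraries were above both basal ones in BALB, NOD and PWK as well. At a site 50.32 kb from Plekhg1, basal H3K27ac was 0 in both libraries and 29.97 and 10.77 at 24 h. With 3 reads taken for both basal libraries together, the level after IL-4 was at least 18.3-fold higher. All 8 rises passed the limma test, with adjusted p between 0.000185 and 0.00447, and at each of them 24 h replicate 1 was above replicate 2. Without 24 h replicate 1 their adjusted p was 0.364 and without replicate 2 0.175, and without basal replicate 1 that of Plekhg1 was 0.0725.

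**Figure D5:**
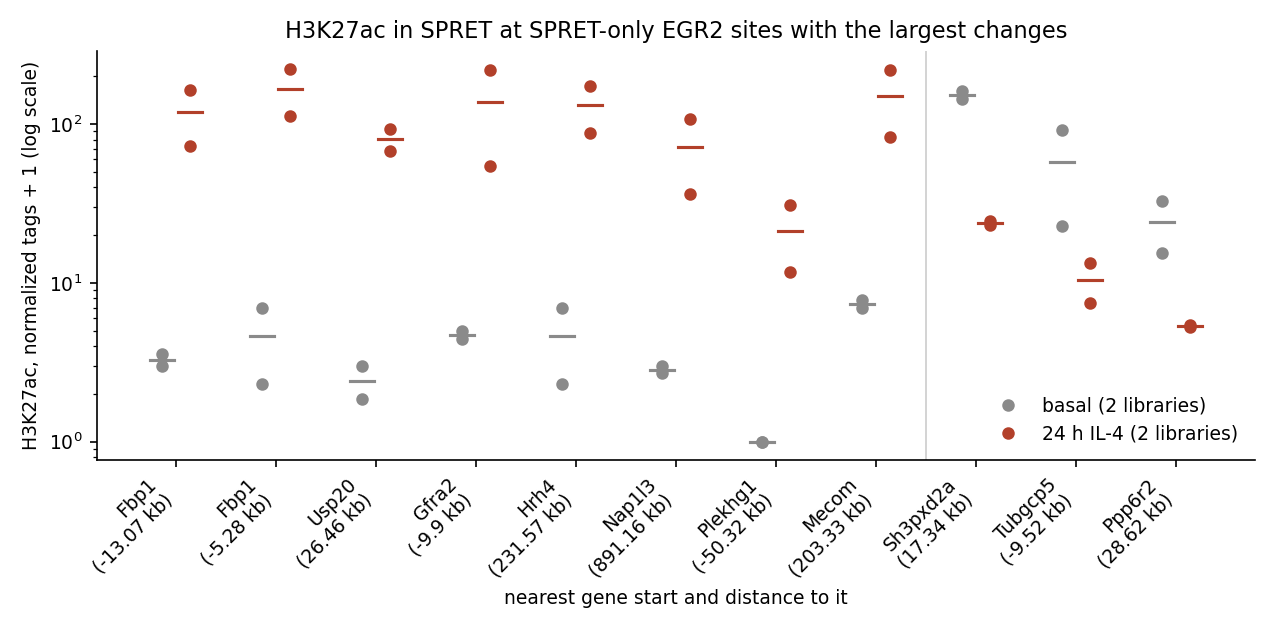
H3K27ac in each SPRET library (points, normalised tags + 1 on a log axis) and group means (bars) in basal (grey) and 24 h IL-4 (red) cells at the SPRET-only sites with the 8 largest rises and the 3 largest falls, by nearest gene and distance to its start. Basal and 24 h points do not overlap at any of the sites, and the proximal Fbp1 site goes from 5.98 and 1.32 to 220.4 and 110.92 tags.

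Of the 3 largest falls 1 passed the limma test. An intron of Sh3pxd2a, which encodes a scaffold protein of podosomes, fell from 160.72 and 143.55 to 22.04 and 23.69 tags, with a log2 difference of -2.68 ± 0.36 (limma adjusted p 0.00128, and 0.0917, 0.364 and 0.175 without basal replicate 1 and 24 h replicates 1 and 2). C57 had 269.34 and 367.93 in basal and 26.31 and 24.94 at 24 h, and in BALB, NOD and PWK too both 24 h libraries were below both basal ones. The site near Tubgcp5 had 91.47 and 21.73 in basal and 12.34 and 6.46 at 24 h, and that in Ppp6r2 31.63 and 14.49 and then 4.41 and 4.31. Their limma adjusted p was 0.0885 and 0.0893.

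None of the 4 highest-scored SPRET-only EGR2 peaks passed the limma test for H3K27ac. The top peak (score 244, chr17:29584395-29584594) lies in an intron of Tbc1d22b and carried PU.1, STAT6 and PPARγ in SPRET, and no factor and no region in any other strain. Its H3K27ac was 177.82 and 231.13 in basal and 114.61 and 138.92 at 24 h (log2 difference -0.68 ± 0.35, limma adjusted p 0.457). The Rnf19b site had 76.08 and 66.51 and then 257.43 and 114.15 (limma adjusted p 0.163), and all other strains had regions there with 89.84 to 175.03 tags in C57 basal cells. The Cic intron had 615.52 and 584.09 and then 656.8 and 361.85 (limma adjusted p 0.846). A site 50.2 kb from Pdia4 had the largest EGR2 count, 1137.8, with 35.91 and 18.44 H3K27ac tags in basal and 33.5 and 29.08 at 24 h (limma adjusted p 0.88). EGR2 was in the SPRET basal list at all 4.

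All 4 factors were listed in SPRET, and none in another strain, at 69 sites, 56 of them on an open region. The 4 with the highest SPRET H3K27ac at 24 h lie near Glrx3, Cpsf2, Sdsl and Zdhhc14 and had no region in any other table. A choice by the 24 h level favours rises. The Sdsl site (chr5:120455133-120455332, EGR2 score 84) had 42.74 and 131.7 tags in basal and 320.02 and 259.54 at 24 h, with a log2 difference of 1.92 ± 0.44. Its limma adjusted p was 0.0426, and it was 0.0797 with median-ratio scaling and 0.794, 0.375 and 0.338 without basal replicate 1 and 24 h replicates 1 and 2. C/EBPβ and STAT6 were added after IL-4, as the basal lists held only PU.1 and PPARγ. The other sites had H3K27ac means of 264.0 to 414.52 tags at 24 h and did not pass the limma test.

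Near genes of the IL-4 response SPRET-only sites were common, as were shared peaks. Of a list of 52 IL-4 response genes, 37 (71.15%) had a SPRET-only site within 50 kb of the start, against 51.05% of 21951 protein-coding genes. For shared peaks the shares were 90.38% and 70.25%. There were 83 SPRET-only sites near the list, and no gene had a SPRET-only site without a shared peak. Arg1, which encodes arginase, had no SPRET-only site and 5 shared peaks. Retnla and Chil3, markers of IL-4-treated macrophages, had no SPRET EGR2 peak of either kind within 50 kb.

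The 9 sites with the most SPRET H3K27ac at 24 h near 10 of these genes were examined. Of them, that at Fbp1 and that near Mgl2 and Clec10a, C-type lectin genes, passed the limma test. The latter lies 1.06 kb upstream of Mgl2 at chr11:70129166-70129365, 411 bp from an EGR2 peak of another strain. H3K27ac was 66.68 and 72.43 tags in basal and 222.16 and 236.92 at 24 h, with a log2 difference of 1.71 ± 0.34 (limma adjusted p 0.018). Without 1 of the libraries the adjusted p was 0.19 to 0.46. Pol II rose from 10.64, 10.66 and 15.4 to 38.87, 39.58 and 38.78 (limma adjusted p 0.0246). All 4 factors were there in SPRET at 24 h. PU.1, C/EBPβ and STAT6 were also listed in C57, BALB, NOD and PWK, and PPARγ in C57, BALB and NOD. Basal H3K27ac in the other strains was lower, from 8.58 and 24.27 in PWK to 34.91 and 44.45 in NOD, with 71.3 to 333.44 tags at 24 h.

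Other IL-4 loci held sites without a called change. The site in Tmem236 near Mrc1, the mannose receptor gene, had 186.37 and 331.88 H3K27ac tags in basal and 288.28 and 262.77 at 24 h in SPRET. C57 was the only other strain with a region there, with 8.14 and 27.1 and then 5.94 and 31.5. At Mgl2, Mrc1 and the other loci the sites were chosen by their SPRET H3K27ac at 24 h. This level enters the tested comparison, so the choice favours rises. The site near Mmp12, a macrophage elastase gene, had 10.26 and 14.49 and then 48.49 and 43.08 (limma adjusted p 0.0542), and its STAT6 peak was absent in basal cells and in other strains. Sites in Cd36 and Trem2 lay 63 and 185 bp from an EGR2 peak of another strain, and sites in Lipa near Ch25h, in Bin3 near Egr3 and near Socs2 lay 953 to 3840 bp away. At these 5 sites the basal and 24 h libraries overlapped and limma adjusted p was 0.764 or higher.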

How the data were processed

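BMDM ChIP-seq data of 5 strains were used as deposited. For the transcription factors, the authors mapped reads with Bowtie2 to strain genomes built from mm10 and known variants, shifted the positions to mm10, called 200 bp peaks with HOMER and kept those reproducible between replicates, giving 1 list per strain and condition with a peak score and a tag count, a signal whose scale is not stated. For histone marks and Pol II, the deposited signal was the number of tags within 500 bp of each open region centre, normalised by the authors to 10000000 tags, in 1 table per strain. Differences in strain genomes, mapping and antibody yield therefore enter the levels of the strains.

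A SPRET peak was SPRET-only when it overlapped no 24 h EGR2 peak of another strain by 1 bp (bedtools 2.31.1 gave equal overlaps on simulated peaks). Sites, lists and several comparisons were chosen with earlier results of these data known. Peaks were matched to regions by centres within 500 bp. All values gave whole reads within 0.1 (100.0%). H3K27ac, H3K4me2 and H3K4me3 (2 libraries a group) and Pol II (3) were tested in the whole SPRET table with limma 3.58.1 on log2(tags + 1) in R 4.3.3, at a Benjamini-Hochberg adjusted p of 0.05. A log2 difference on this scale understates changes of low regions. The fold rule takes its 2.5-fold change and tag minimums from the study's methods, but was applied to each mark alone, with a pseudocount of 1 and to all regions. Alternatives used edgeR 4.0.16 and DESeq2 1.42.0 on the recovered reads. The labels name separate samples but not separate animals, so p-values measure the spread between these samples. Same-numbered Pol II libraries deviated together (correlations 0.442, 0.414 and 0.425), so the replicate number was also fitted as a block.

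Named sites were the 8 largest H3K27ac rises and 3 largest falls past the fold rule with libraries that did not overlap. Further named sites were the 4 highest-scored peaks and the sites at the edge of the rule. By SPRET H3K27ac at 24 h, the highest site at each of 10 IL-4 genes was named. So were the 4 highest by that level among sites with all 4 factors in SPRET and none elsewhere. Nearest genes and places came from the GENCODE annotation of mm10 in the reference used, and motifs from the mm10 sequence. Intervals are exact 95% binomial. The sequence of 1 named site is not reported here.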

Additional observations from a re-analysis of the deposited data

How the results depend on the processing

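The rule left 2876 sites when all EGR2 lists were shortened, and shortened factor lists gave shares of 41.38% for PU.1 and 12.81% for STAT6. The EGR motif was in 0.27% as the full element, 6.98% with 1 mismatch and 3.17% in 100 bp. With regions matched within 200 bp, median H3K27ac in basal and 24 h cells was 27.94 and 31.34 in SPRET, 24.09 and 18.91 in C57, 36.41 (basal) in BALB, 28.75 and 21.86 in NOD and 26.56 and 22.65 in PWK. In regions matched in all 5 tables it was 70.78 and 63.41, 57 and 36.92, 56.15 (basal), 62.81 and 46.22, and 59.63 and 49.28. Leaving out each library gave 29.07 to 30.95 (SPRET basal), 25.1 to 26.38 and 19.52 to 21 (C57), 41.7 to 44.09 (BALB basal), 30.96 to 32.42 and 23.64 to 26.76 (NOD) and 25.59 to 28.63 (PWK 24 h).

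The replicate block changed the counts of calls. It gave 403 higher and 126 lower for H3K27ac (4.323% and 2.708% of all regions), 199 and 224 for Pol II and 71 and 1349 (27.05%) for H3K4me2 (0.979% and 29.561% of all regions). Same-numbered libraries deviated together for the histone marks as well, with correlations of 0.507 for H3K27ac, 0.403 for H3K4me2 and 0.609 for H3K4me3. With 2 libraries a group their deviations mirror each other, and whether the numbers mark a pairing was not tested. For H3K27ac, edgeR called 175 higher and 27 lower, DESeq2 18 lower, a filter on low values 25 lower and median-ratio scaling 4 lower, and leaving out a library 0 to 50 higher and 0 to 2 lower. For Pol II, median-ratio scaling called 64 higher (1.283%, against 1.11% of all regions). edgeR called 64 higher and 24 lower (1.283% and 0.481%, against 1.143% and 0.553%). DESeq2 called 85 and 43 (1.704% and 0.862%, against 1.487% and 0.955%). Leaving out a Pol II library gave 3 to 28 higher and 0 to 9 lower, with 0.069% to 0.51% and 0.002% to 0.168% of all regions. For H3K4me2, leaving out a library called 0 to 18 higher and 4 to 486 lower. For H3K4me3, edgeR called 17 and 4 and DESeq2 5 and 1. A lone library was assumed to vary like the other groups.

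No share over all regions is given for the counts in this paragraph, so they are not read as an excess or a lack. With a 2-fold rule, rises and falls in SPRET were 417 and 142 for H3K27ac and 194 and 135 for Pol II. They were 24 and 141 for H3K4me2 and 32 and 15 for H3K4me3. H3K27ac fell at 668 in C57, 412 in BALB and 322 in PWK, and rose at 148 and fell at 464 in NOD. A pseudocount of 5 gave 25 H3K27ac falls, 51 and 13 for Pol II and 1 H3K4me2 fall. Median-ratio scaling gave 29 H3K27ac falls and 43 and 0 for H3K4me2 in SPRET, 130 and 160 in C57, 74 falls in BALB, 138 and 151 in NOD and 84 falls in PWK. Leaving out a library gave 240 to 385 and 39 to 113 for H3K27ac, 26 to 90 Pol II falls, 12 to 49 and 10 to 94 for H3K4me2 and 19 to 31 and 4 to 24 for H3K4me3 in SPRET. In BALB it gave 59 to 134 and 156 to 585, in NOD 111 to 144 and 227 to 423 and in PWK 117 to 177 and 141 to 273.

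Of the named sites none that was called changed sign. Without a library the log2 difference ran from -0.73 to 0.13 at Cic, -0.2 to 0.73 at Pdia4, -0.11 to 0.68 at Lipa, -0.17 to 1.03 at Bin3, -0.27 to 0.56 at Tmem236, -0.03 to 0.12 at Cd36, -0.2 to 0.65 at Socs2, -0.29 to 0.47 at Trem2 and -0.77 to 0.05 at Cpsf2. The causes of these changes were not tested. In all, 142 summary values stayed and 130 moved, and of the named values 219 stayed, 28 weakened, 11 strengthened and 12 changed sign. With 2 libraries a group, the calls rest on few residual degrees of freedom, and peak lists have no replicate values.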
